A study of Bubalus bubalis with 36 samples.

Results

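Small RNA sequencing of buffalo fat listed many short RNAs that carry no microRNA (miRNA) name, only the identifier of a reference sequence followed by a running number. The loci described here are the 82 of 987 such candidate loci chosen by their mean level over all libraries, at least 10 RPM (reads scaled to a common library total). The deposited table held 1682 features in all, the other 695 of which carry bovine miRNA names. Abundance was thus the measured value that chose the 82 loci, and their mean levels are given as a description and no test is made on them. Comparisons between depots and between animals were not used in the choice.

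Adipose tissue came from 6 buffaloes (Bubalus bubalis), and each animal gave 1 library from each of 6 depots, 36 libraries in all. Subcutaneous fat was back fat (BSAT), inguinal fat from the groin (IAT) and sternal fat (SSAT). Visceral fat came from the omentum (OAT), from around the heart sac (pericardial, PCAT) and from around the kidney (perirenal, PRAT), and each class had 18 libraries. All animals had the same history: weaning at 3 months, fattening from 15 months and slaughter at 20 months of age, and no treatment separated them. A library is named by its depot and its animal, as in SSAT1. The samples are whole tissue, so fewer cells of a type and less RNA per cell cannot be told apart.

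A miRNA is a short RNA cut from a hairpin in a longer transcript by the enzymes Drosha and Dicer. It is loaded into an Argonaute protein and guides it to messenger RNAs with matching sites, which are then repressed. Catalogues of miRNAs are less complete for buffalo than for cattle, and discovery programs therefore list candidate loci at which reads pile up in a hairpin-like pattern without saying whether the product is a known miRNA, a copy of one or another small RNA. In fat, miRNAs are best known for their effects on adipocyte differentiation, lipid storage and inflammation. The functions of the 82 loci are not known from their identifiers, and the tables used here give neither sequences nor coordinates for them.

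The 82 loci took 23.2% of all counts, and the whole set of 987 candidates took 23.3%. The 905 candidates below the threshold therefore held almost nothing: 99.8% of the counts of candidate loci lay in the 82. Within the 82 the counts were concentrated further. The most abundant locus held 25.7% of their counts, the 3 most abundant held 55.6% and the 10 most abundant held 82.2%. A mean of at least 1000 RPM was reached by 25 loci, 20 lay between 100 and 1000 RPM, and 37 lay between 10 and 100 RPM. Each of the 82 had at least 1 count in every library.

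The leading 3 loci ranked among the 10 most abundant features of the whole table, named miRNAs included. NC_059159.1_9569 ranked 2 with 59428 ± 41402 RPM (SD, n = 36), NC_059165.1_25340 ranked 8 with 36275 ± 21350 RPM, and NC_059157.1_805 ranked 9 with 32873 ± 9396 RPM. The tables give no lengths, so RPM is not scaled by length. The levels by library below are CPM, counts scaled like RPM but to library totals corrected for composition by TMM factors. NC_059159.1_9569 ran from 21969 CPM in PCAT2 to 170869 CPM in OAT2, with a median of 43695, and the ranges of all 6 depots overlapped. NC_059157.1_805 was steadier, from 13357 to 66171 CPM with a median of 34383. The remaining loci of the 10 most abundant were NC_059176.1_40495, NC_059171.1_34525, NC_059181.1_46485, NC_059165.1_25336, NC_059165.1_23674, NC_059159.1_9300 and NC_059157.1_795. Of these 10, only NC_059165.1_25340 and NC_059165.1_25336 differed between the depot classes in the test described further on. NC_059171.1_34525 (7010 to 16259 CPM in subcutaneous and 5835 to 19269 in visceral libraries) and NC_059159.1_9300 (2879 to 8674 and 3250 to 9525 CPM) had the narrowest ranges of the 10 as a ratio of highest to lowest.

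At the lower end, the last 3 loci inside the threshold were NC_059178.1_43407 with 10.6 RPM, NC_059168.1_30046 with 10.12 RPM and NC_059170.1_32627 with 10.11 RPM. The first 3 outside it were NC_059158.1_4302 with 9.55 RPM and NC_059158.1_5731 and NC_059158.1_6094 with 8.57 RPM each. All 6 depot means were at least 10 RPM for 70 of the 82 loci, and the median library was at least 10 RPM for 72. Without its highest library, the mean of NC_059172.1_35707, NC_059168.1_30046 and NC_059170.1_32627 fell below 10 RPM.

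The identifiers spread the 987 candidates over 25 reference sequences and the 82 loci over 23 of them. Of all candidates 8.31% passed the threshold. The sequence NC_059159.1 held 12 of the loci among 79 candidates, NC_059181.1 held 11 among 43, and NC_059176.1 held 9 among 30. None of the 13 candidates on NC_059166.1 and none of the 32 on NC_059177.1 reached 10 RPM. The tables do not pair these identifiers with chromosome names, so the loci are placed only by reference sequence.

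The share of counts averaged 23.0% ± 3.26 (SD, n = 6) in BSAT, 25.3% ± 1.53 in SSAT, 23.2% ± 2.23 in IAT, 23.9% ± 5.73 in OAT, 23.4% ± 3.55 in PCAT and 20.3% ± 4.56 in PRAT. The lowest library was PRAT5 with 15.6% and the highest was OAT2 with 35.1%, the library in which NC_059159.1_9569 peaked. Every SSAT library, the lowest at 23.0%, lay above the PRAT mean, while the ranges of all depots overlapped. The share was not tested.

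**Figure D1:**
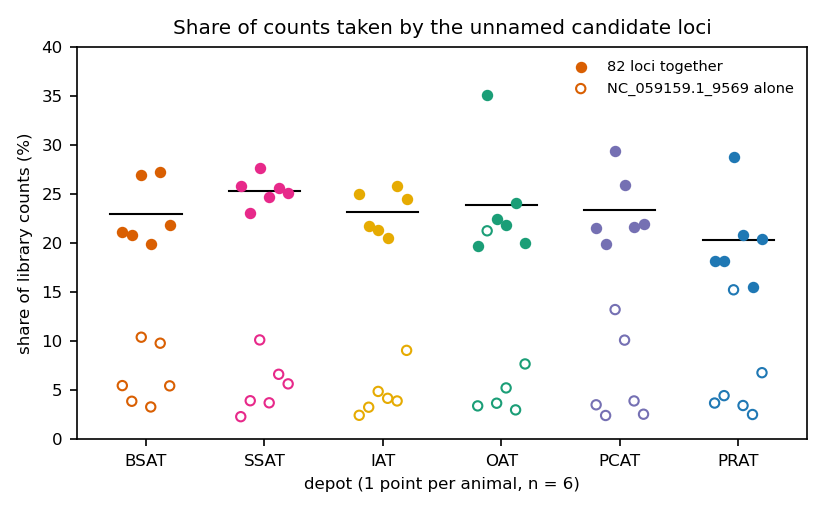
Share of each library's counts (percent, vertical axis) taken by the 82 loci together (filled points) and by NC_059159.1_9569 alone (open points), by depot, with 1 point per animal. Black bars are depot means of the filled points, which run from 20.3% in PRAT to 25.3% in SSAT, and the highest point is OAT2 with 35.1%.

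The first comparison set subcutaneous against visceral fat, the contrast stated for the series. It was fitted by edgeR's quasi-likelihood test over all 667 features that passed a filter on low counts, among them all 82 loci. A call is an adjusted p below 0.05. The model for classes and depots held no term for the animal, so the pairing of libraries by animal was not used. Of the 82 loci, 22 were called (26.8%), against 16.5% of all features tested. In subcutaneous fat 10 loci were higher (7.2% of all features were) and 12 were lower (9.3% of all features). Of the 196 tested candidates below 10 RPM 14 were called, and of the 389 named miRNAs 74 were called. The median log2 difference was −0.03 over the 82 loci and −0.09 over all features tested. The 82 loci were chosen for abundance, and the lowest of them ranked 293 among all features, so many features tested were rarer. With the filter raised to a mean of at least 10 CPM, by that rank about 293 features remained. Of these 79 were called, and of the 82 loci 25 were. The 2 shares then lay closer together than 26.8% and 16.5%. The part of abundance in the share called was not tested.

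The split into higher and lower depended on scaling. With library totals alone, 27 loci were called (138 of all features), 7 higher and 20 lower. Limma on log2(RPM + 1) called 20 (114 of all features), 6 higher and 14 lower. With library totals alone the median over all features was −0.29 in place of −0.09, so single values near 0 have no firm sign. Library names in the labels hold a letter, A or B, with no meaning given. Letter A marked 8 libraries, and 7 of these were visceral. Within the 28 letter B libraries 10 of the 22 loci were called and no other, 5 in each direction (39 of all features). With the letter as a covariate 13 were called (71 of all features). With the animal as a block in the model 18 were called (109 of all features). In sums over each animal's depots of a class, with that block, 7 were called (44 of all features).

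**Figure D2:**
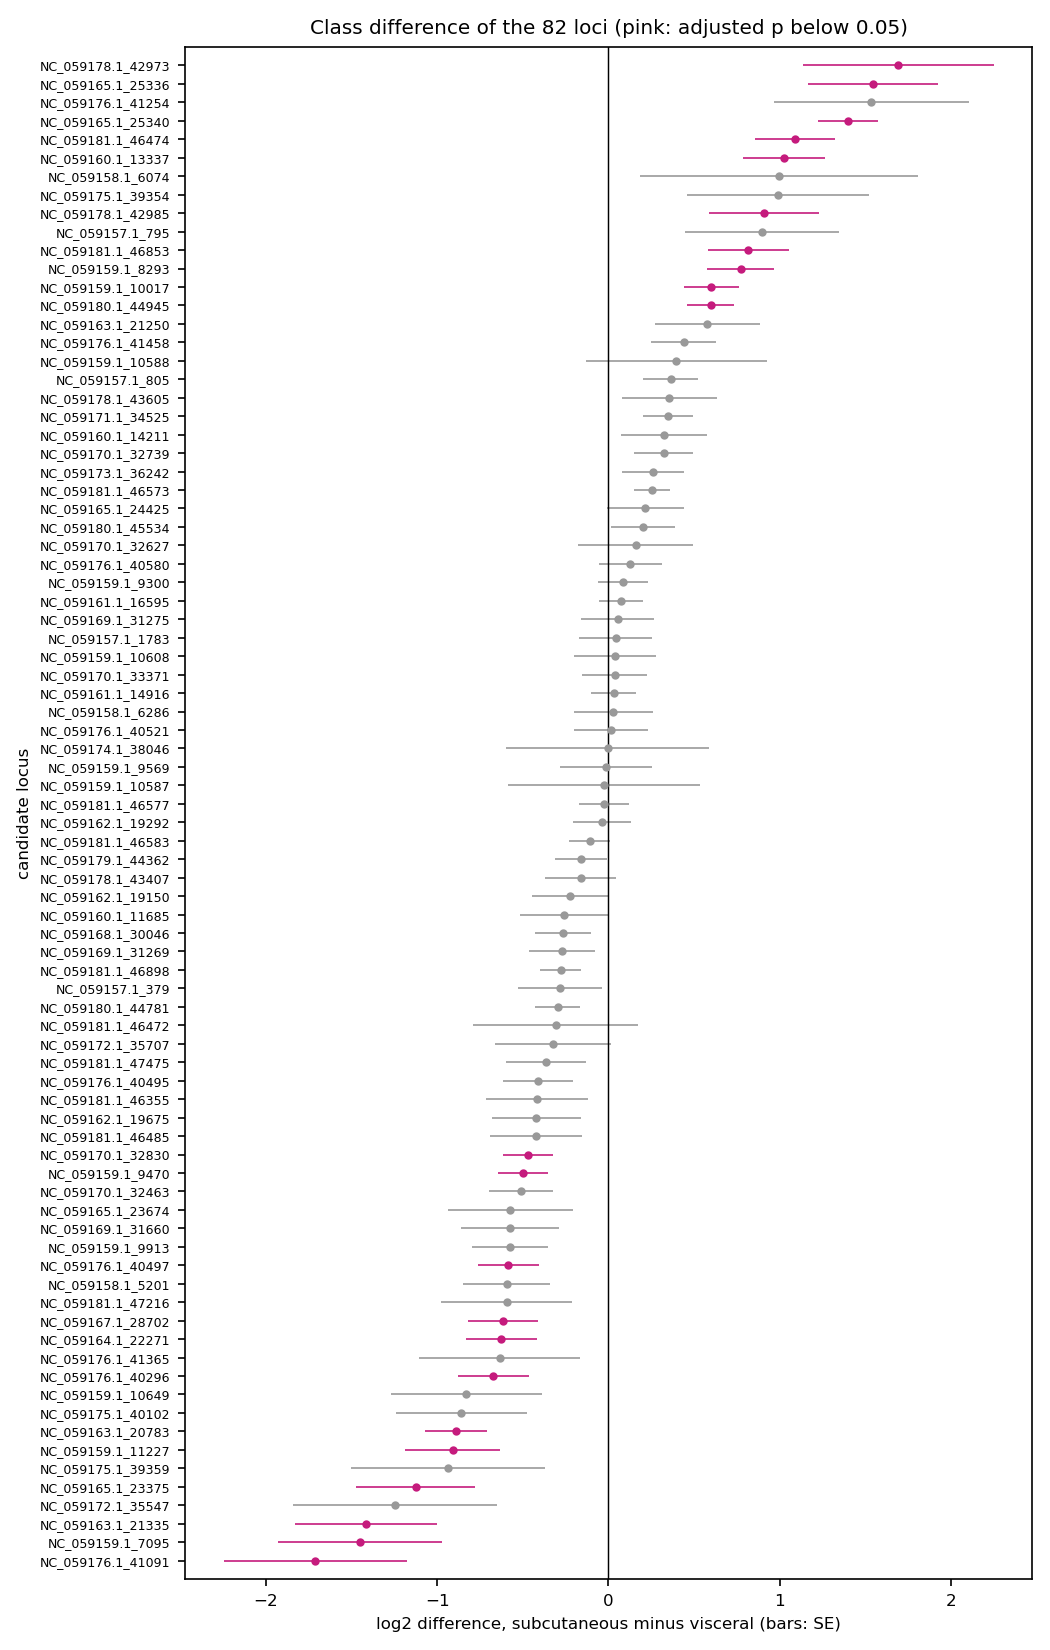
Fitted log2 difference, subcutaneous minus visceral, of each of the 82 loci (horizontal axis; bars are SE), ordered by size. The 22 loci called at an adjusted p below 0.05 are pink, 10 to the right of 0 and 12 to the left.

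The loci that kept their call under other scalings, filters, tools and models and with each animal or library left out in turn numbered 4. The clearest was NC_059165.1_25340. It ran from 16702 to 131185 CPM with a median of 46050 in subcutaneous libraries and from 11379 to 33128 CPM with a median of 19686 in visceral libraries. The classes overlapped, but 15 of 18 subcutaneous libraries lay above every visceral one. On the log2 scale the difference was 1.40 ± 0.18 (SE; adjusted p = 3.70e-07), with the same direction in 6 of 6 animals, and 1.34 within letter B libraries (adjusted p = 8.04e-04).

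NC_059181.1_46474 ran from 1827 to 8485 CPM (median 3983) in subcutaneous and from 636 to 5383 CPM (median 1902) in visceral libraries. Here 9 visceral libraries lay below every subcutaneous one, and PCAT held the lowest values. NC_059181.1_46474 differed by 1.09 ± 0.23 on the log2 scale (adjusted p = 0.00143), higher in 6 of 6 animals. It was 0.69 without the pericardial depot and then no longer called (adjusted p = 0.0961).

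NC_059160.1_13337 ran from 82.3 to 996 CPM (median 439) in subcutaneous and from 78.8 to 416 CPM (median 221) in visceral libraries. The ranges overlapped at the bottom, where low inguinal and sternal libraries lay, and 10 subcutaneous libraries lay above every visceral one. Its log2 difference was 1.02 ± 0.24 (adjusted p = 0.00428), higher in 6 of 6 animals, and 1.05 within letter B libraries.

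NC_059163.1_20783 went the other way. It ran from 27.2 to 85.5 CPM (median 56.8) in subcutaneous and from 44.8 to 189 CPM (median 106) in visceral libraries, and 13 visceral libraries lay above every subcutaneous one. Its log2 difference was −0.89 ± 0.18 (adjusted p = 8.56e-04), lower in 6 of 6 animals, and −0.83 within letter B libraries.

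Among the other loci higher in subcutaneous fat, NC_059165.1_25336 ran from 1335 to 35048 CPM (median 8337) against 547 to 12457 CPM (median 2674) in visceral libraries. The ranges overlapped widely, with 6 subcutaneous libraries above every visceral one. The log2 difference was 1.55 ± 0.38 (adjusted p = 0.00579). It depended on the depots included: without the perirenal depot it was 0.90 and without the sternal depot 1.17, neither of them called (adjusted p = 0.175 and 0.0732).

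NC_059159.1_8293 ran from 1325 to 7898 CPM (median 2932) in subcutaneous and from 284 to 5434 CPM (median 2160) in visceral libraries. The 6 lowest visceral libraries were the 6 pericardial ones. The log2 difference was 0.77 ± 0.20 (adjusted p = 0.00699), but without the pericardial depot it was −0.11 and not called (adjusted p = 0.797). This locus is therefore described with the depots.

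NC_059180.1_44945 (3075 to 7963 against 2299 to 5403 CPM; log2 difference 0.60 ± 0.14, adjusted p = 0.00416) and NC_059159.1_10017 (13.7 to 41.5 against 8.71 to 27.8 CPM; 0.60 ± 0.16, adjusted p = 0.00925) were higher in 6 of 6 animals. NC_059181.1_46853 had a log2 difference of 0.82 ± 0.24 (adjusted p = 0.0156) and was higher in 5 of 6 animals. NC_059178.1_42973 had the largest fitted difference, 1.69 ± 0.55 (adjusted p = 0.0338), and its neighbour by number NC_059178.1_42985 had 0.91 ± 0.32 (adjusted p = 0.0490). Both followed a few libraries: NC_059178.1_42973 had 0.86 without SSAT1, 1.48 without BSAT3 and 1.16 without IAT1, none of them called, and NC_059178.1_42985 lost its call without any of 18 libraries and had 0.56 without SSAT1.

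The other loci lower in subcutaneous fat were led by NC_059163.1_21335, which ran from 46.0 to 839 CPM (median 244) in subcutaneous and from 85.6 to 3075 CPM (median 479) in visceral libraries. Here 6 visceral libraries lay above every subcutaneous one, 4 of them omental, but OAT6 and OAT1 were the 2 lowest visceral libraries. The log2 difference was −1.42 ± 0.41 (adjusted p = 0.0168), lower in 6 of 6 animals, and the call was lost without animal 2 or animal 3.

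NC_059165.1_23375 had −1.13 ± 0.35 (adjusted p = 0.0230) and NC_059159.1_11227 had −0.91 ± 0.28 (adjusted p = 0.0218), both lower in 5 of 6 animals. NC_059165.1_23375 ran from 43.4 to 299 CPM in subcutaneous and from 24.4 to 831 CPM in visceral libraries, and NC_059159.1_11227 from 10.7 to 43.5 and from 7.75 to 139 CPM. The omental depot held both the lowest and the highest library of each. Without OAT2 the differences were −0.95 and −0.70, and without OAT6 that of NC_059165.1_23375 was −0.95, none of them called. The 6 leukocyte miRNA features (miR-142-3p, miR-142-5p, miR-223, miR-150, miR-155 and miR-146a, none at a median of 0; most of the sum is miR-150) moved with the class as well: their summed level ran from 1559 to 25923 CPM (median 4466) in subcutaneous and from 3075 to 46975 CPM (median 8280) in visceral libraries. It was 19451 CPM in OAT2 and 46975 CPM in OAT6. NC_059165.1_23375 was also most like miR-146a, a member of this list, in its pattern over libraries. A list of 5 epithelial features (miR-200a, miR-200b, miR-200c, miR-141 and miR-429) also differed by class, with summed levels of 3.72 to 77.6 CPM (median 5.97) in subcutaneous and 5.17 to 2811 CPM (median 128) in visceral libraries. The part of both lists in the class differences was not tested.

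Smaller decreases were fitted for NC_059176.1_40296 (−0.67), NC_059164.1_22271 (−0.63), NC_059167.1_28702 (−0.62), NC_059176.1_40497 (−0.59), NC_059159.1_9470 (−0.50) and NC_059170.1_32830 (−0.47). Each of these 6 lost its call in at least 3 of 10 refits with another scaling, filter, tool or model and when some single libraries were left out. NC_059176.1_40296 had −0.58 without OAT6, −0.56 without PCAT3 and −0.53 without PRAT3, and NC_059176.1_40497 had −0.53 without PCAT3 and −0.46 without PRAT2. The remaining 2 called loci, NC_059159.1_7095 (−1.45 ± 0.48) and NC_059176.1_41091 (−1.71 ± 0.54), were lower in subcutaneous fat in only 4 and 3 of 6 animals. They fall outside the naming rule and are named after their values were seen. NC_059176.1_41091 and NC_059167.1_28702 reached the threshold of 10 RPM only through visceral fat, with subcutaneous means of 8.47 and 9.25 RPM. The choice of members therefore favoured their direction, and the same holds for 7 uncalled loci, while no locus had a visceral mean below 10 RPM.

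The 60 loci not called by class had fitted differences from −1.25 to 1.53, 27 above 0 and 33 below, with standard errors over all 82 loci from 0.10 to 0.81. NC_059159.1_9569, the most abundant, was among them with −0.01, a value that changed sign between settings.

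The next comparisons took the depots one at a time. The F test over all 6 depots called 15 of the 82 loci (18.3%), against 13.9% of all features tested. With the filter at a mean of at least 10 CPM it called 21 of the 82 loci and 85 of the about 293 features that remained. The share called was then no higher in the loci than in all features. Each depot was then set against the mean of the other 5. The 6 contrasts share libraries, so their values are given side by side and are not counted against each other. BSAT called 1 locus, which was higher (2.25% of all features were called, 1.65% of them as higher). SSAT called 13 (9.3% of all features), 9 higher (5.55%) and 4 lower (3.75%). IAT called none (0.3%), and OAT called 1, which was higher (1.5%, and 0.9% as higher). PCAT called 8 (9.15%), 4 higher (6.75%) and 4 lower (2.4%), and PRAT called 4 (3.15%), 2 higher (2.7%) and 2 lower (0.45%). At an unadjusted p below 0.05, IAT had 5 of the 82 loci and 46 of all 667 features.

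**Figure D3:**
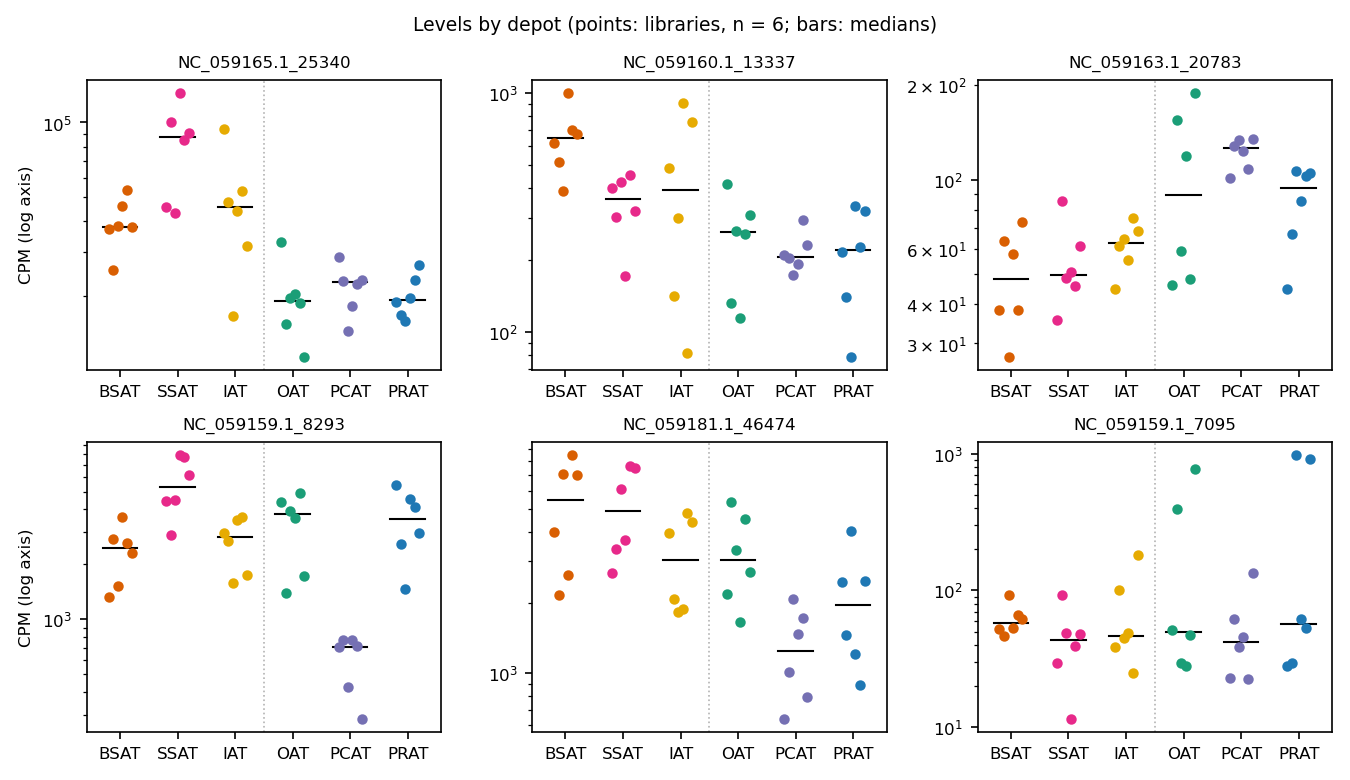
Level of 6 loci by depot (CPM, log axis), with 1 point per library (n = 6) and bars at the medians; the dotted line separates subcutaneous from visceral depots. NC_059159.1_8293 lies at or below 769 CPM in all 6 pericardial libraries and above that in the other 30, and NC_059159.1_7095 is high in 4 libraries of the omental and perirenal depots.

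The pericardial value of NC_059159.1_8293 was the clearest depot difference of the 82 loci. Its 6 pericardial libraries ran from 284 to 769 CPM (median 707), while the lowest of the other 30 libraries had 1325 CPM. The groups did not overlap. The log2 difference of PCAT from the other 5 depots was −2.45 ± 0.32 (adjusted p = 7.11e-07), and it ranged from −2.67 to −2.27 over the other processing tried, all of it with a call. SSAT stood at the other end, with 2907 to 7898 CPM (median 5330) and a difference of 1.39 ± 0.24 (adjusted p = 1.72e-04).

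NC_059181.1_46474 was also low in pericardial fat, where it ran from 636 to 2077 CPM (median 1239). These values overlapped those of IAT, OAT and PRAT. The difference of −1.48 ± 0.34 on the log2 scale (adjusted p = 0.00393) also kept its call in all these refits. NC_059173.1_36242 ran from 24.5 to 91.7 CPM in PCAT (median 60.5) with a difference of −1.12 ± 0.26 (adjusted p = 0.00398), and of the other libraries only SSAT1, SSAT2 and OAT4 reached as low. NC_059165.1_25340 was the last of the 4 loci lower there, with −0.74 ± 0.24 (adjusted p = 0.0492).

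The 4 loci higher in PCAT were NC_059181.1_47475, NC_059176.1_40497, NC_059163.1_20783 and NC_059181.1_46898. NC_059176.1_40497 ran from 1889 to 3842 CPM (median 2979) there, and overlapped every other depot except SSAT, which reached 1308 CPM. Its log2 difference was 0.95 ± 0.22 (adjusted p = 0.00393), and 0.77 without PCAT3 and 0.76 without PCAT6, neither called. NC_059181.1_47475 ran from 502 to 927 CPM (log2 difference 1.01 ± 0.29, adjusted p = 0.0203), and its call was lost without any of 25 libraries. NC_059163.1_20783 ran from 101 to 135 CPM, a narrow range that the back, sternal and inguinal libraries did not reach (log2 difference 0.83 ± 0.23, adjusted p = 0.0129). That call was lost without SSAT5 or without any PCAT library except PCAT1, with values down to 0.70. NC_059181.1_46898 had 0.54 ± 0.16 (adjusted p = 0.0188). The summed epithelial level in PCAT ran from 5.17 to 506 CPM (median 271), and its part in the pericardial differences was not tested.

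In sternal fat the locus with the smallest adjusted p was NC_059165.1_25340. It ran from 43268 to 131185 CPM (median 87717), above every visceral library but overlapping BSAT and IAT, with a log2 difference of 1.57 ± 0.21 (adjusted p = 5.03e-06). NC_059165.1_25336 ran from 1335 to 35048 CPM (median 12064) and had 1.69 ± 0.44 (adjusted p = 0.0174), and 1.42 without SSAT1, not called. NC_059181.1_46474 had 0.93 ± 0.29 and NC_059180.1_44945 had 0.59 ± 0.18.

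The 3 largest sternal differences came from the library SSAT1. NC_059178.1_42973 had 2534 CPM in SSAT1, while the sternal median was 51.8 CPM. NC_059176.1_41254 had 1013 CPM there against a sternal median of 21.5 CPM, and NC_059157.1_795 had 58883 CPM against 3285 CPM. The fitted log2 differences were 2.66, 2.40 and 2.28, and without SSAT1 they were 0.29, 0.09 and 0.32, none of them called. With the animal as a block they were 1.56, 1.32 and 1.42, not called either. NC_059178.1_42985 followed the same library, with 192 CPM in SSAT1 and at most 43.9 CPM in the other 5 sternal libraries. Its log2 difference was 1.38 ± 0.39 (adjusted p = 0.0243), and 0.39 without SSAT1, not called.

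The loci lower in SSAT were NC_059181.1_47475 (−1.07), NC_059176.1_40495 (−1.05), NC_059176.1_40521 (−0.96) and NC_059176.1_40497 (−0.88), 3 of them on the reference sequence NC_059176.1. NC_059176.1_40495, among the 10 most abundant loci, ran from 6267 to 13851 CPM (median 9165) in SSAT and from 10910 to 34627 CPM (median 26436) in IAT. Its call was lost without SSAT1 (−0.92), SSAT4 (−0.97) or SSAT5 (−0.88). The other 3 were not called without SSAT1 either, and NC_059181.1_47475 lost its sternal call without any of 29 libraries and in 4 of 9 refits with another scaling, filter, tool or model. Leaving out SSAT1 lowered the count of sternal calls from 13 to 4, and leaving out SSAT4 lowered it to 5. The counts over all features are not set beside these.

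In perirenal fat, NC_059165.1_25336 was low. It ran from 547 to 2755 CPM (median 1578), below every back-fat library (lowest 3864 CPM) but overlapping the lowest libraries of the other 4 depots. Its log2 difference was −2.41 ± 0.60 (adjusted p = 0.0136), and −2.28 without PRAT2, not called. NC_059165.1_25340 had −0.86 ± 0.25 (adjusted p = 0.0419). In PRAT the summed epithelial level ran from 15.5 to 2811 CPM (median 106), and miR-122, a liver marker, from 1.21 to 283 CPM (median 3.82, against 0.45 over all libraries). Their part in the perirenal values was not tested.

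The 2 loci higher in PRAT rested on 2 libraries. NC_059159.1_7095 had 975 CPM in PRAT3 and 918 CPM in PRAT6, while the perirenal median was 57.0 CPM. NC_059176.1_41091 had 267 CPM in PRAT3 and 141.8 CPM in PRAT6 with a median of 7.16 CPM. The log2 differences were 2.19 and 2.64, and without both libraries they were −0.77 and −1.15, neither called. The animal block gave 1.67 and 1.87, neither called. The same loci were high in OAT6 (777 and 186 CPM) and OAT2 (398 and 37.7 CPM). The summed leukocyte level was 25962 CPM in PRAT3, 13981 CPM in PRAT6, 46975 CPM in OAT6 and 19451 CPM in OAT2, above the median of 5535 CPM over all libraries. Its part in these values was not tested.

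The single back-fat call was NC_059160.1_13337, which ran from 389 to 996 CPM (median 647) in BSAT and overlapped the upper sternal and inguinal libraries. On the log2 scale the difference was 1.195 ± 0.29 (adjusted p = 0.0189), 1.07 within letter B libraries and not called there (adjusted p = 0.145), and it lost its call without any of 8 libraries. The single omental call was NC_059163.1_21335, which ran from 85.6 to 3075 CPM (median 1198) in OAT. Its log2 difference was 1.84 ± 0.48 (adjusted p = 0.0432), 1.67 with the animal as a block and not called (adjusted p = 0.107), and it lost its call without any of 14 libraries.

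Within the visceral class the F test called 2 of the 82 loci (1.95% of all features were called). They were NC_059159.1_8293 (adjusted p = 8.50e-06) and NC_059173.1_36242 (adjusted p = 0.0406), both lowest in PCAT. Within the subcutaneous class edgeR called none of the 82 (0.6% of all features). At an unadjusted p below 0.05 it had 9 of the 82 loci and 93 of all 667 features. DESeq2 called 5 of the 82 and 27 of all features, and limma called 1 of the 82 and 7 of all features.

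Each animal gave 6 libraries, so the loci could also be compared between animals. The F test over animals called 11 of the 82 loci (13.4%), against 11.7% of all features tested. With the filter at a mean of at least 10 CPM it called 14 of the 82 loci and 42 of the about 293 features that remained. The smallest adjusted p belonged to NC_059160.1_11685 (5.81e-06). It ran from 10.7 to 20.8 CPM in animal 1 and from 11.98 to 40.2 CPM in animal 5, while the medians of the other 4 animals lay between 5.64 and 8.09 CPM. Only BSAT1, the lowest of the 12 libraries of animals 1 and 5, lay below the highest of the other animals, 11.3 CPM. The mean of NC_059160.1_11685 was 11.2 RPM over all libraries and below 10 RPM without animals 1 and 5. The choice of loci therefore favoured its direction.

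NC_059174.1_38046 showed the opposite order (adjusted p = 9.43e-06). Animal 1 ran from 2.41 to 11.5 CPM and animal 5 from 1.72 to 74.97 CPM, with medians of 4.12 and 7.15 CPM. The medians of animals 2, 3, 4 and 6 were 61.9, 93.0, 151 and 89.8 CPM, and none of their libraries was below 24.9 CPM. BSAT5, with 74.97 CPM, was the library of animals 1 and 5 that reached the range of the others.

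NC_059163.1_21250 was high in the same pair of animals (adjusted p = 2.04e-04), with medians of 2103 CPM in animal 1 and 1344 CPM in animal 5 and medians of 495 to 669 CPM in the other 4. NC_059159.1_10649 (adjusted p = 0.00401) had its highest median, 40.6 CPM, in animal 6, and its lowest, 5.39 CPM, in animal 5. Its mean was 17.2 RPM over all libraries and below 10 RPM without animals 2 and 6, so the choice of loci favoured its direction as well. NC_059181.1_46355 (adjusted p = 0.00633) had medians of 5.19 CPM in animal 1 and 6.91 CPM in animal 5 and of 9.52 to 19.3 CPM in the others. The other 6 called were NC_059172.1_35547, NC_059159.1_11227, NC_059181.1_46472, NC_059159.1_7095, NC_059158.1_6074 and NC_059169.1_31269. Animals 1 and 5 together stood at one end of the order in 10 of the 11 called loci, highest in 2 and lowest in 8, and in 40 of the 78 features called in the whole table. The labels name nothing that these 2 animals share. Leaving out IAT1 lowered the count of loci called over animals from 11 to 7. The count over all features is not set beside it.

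**Figure D4:**
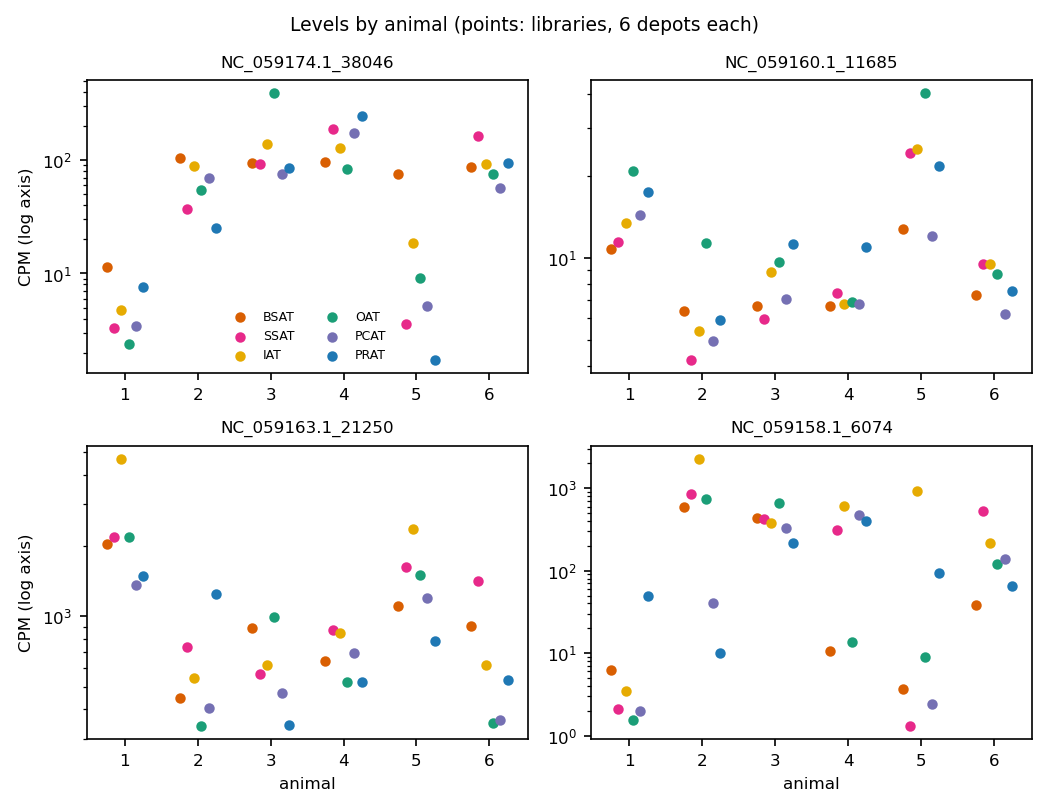
Level of 4 loci by animal (CPM, log axis), with 1 point for each of the 6 depots in its colour. Animals 1 and 5 are low for NC_059174.1_38046, with medians of 4.12 and 7.15 CPM, and high for NC_059160.1_11685 and NC_059163.1_21250; NC_059158.1_6074 is low in most of their libraries.

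The widest ranges over the 36 libraries belonged to NC_059158.1_6074 (10.6 on the log2 scale, from 1.32 to 2267 CPM), NC_059175.1_39359 (8.91, from 4.06 to 2033 CPM), NC_059159.1_10587 (8.67, from 3.65 to 1553 CPM), NC_059172.1_35547 (8.21, from 1.22 to 410 CPM) and NC_059178.1_42973 (8.12, from 8.97 to 2534 CPM). The median range was 3.27 over the 82 loci and 3.97 over all features tested. NC_059158.1_6074 fell into 12 libraries at or below 13.6 CPM and 24 at or above 38.8 CPM. The low ones came from both classes, 6 subcutaneous and 6 visceral, and 9 were from animals 1 and 5. NC_059175.1_39359 had its 4 highest values in omental libraries, 2033 CPM in OAT6, 1806 in OAT4, 1362 in OAT1 and 1147 in OAT3. The other omental libraries were lower, with 410 CPM in OAT5 and 35.7 CPM in OAT2, and no depot contrast called it.

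For each locus, the feature with the most similar pattern was found by Pearson's r of log2 CPM over the 36 libraries. These correlations are descriptions: the libraries come from 6 animals and share depth and depot. The highest r of a locus had a median of 0.77 over the 82 loci and 0.70 over all features tested, and it was at least 0.9 for 15 of the 82 (18.3%) and for 48 of 667 features (7.20%). The 82 loci were chosen for abundance, and no share was taken over equally abundant features. The part of abundance in these values was not tested. For 50 of the 82 loci the most similar feature carries a miRNA name, as do 389 of the 667 features tested.

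Several abundant loci ran parallel to a named miRNA of lower level. NC_059165.1_25340 followed miR-23a (r = 0.96), a miRNA made from a cluster with miR-27a and miR-24, at a median ratio of 6.88, with ratios from 4.09 to 9.57. NC_059159.1_8293 followed miR-10a (r = 0.97), which lies among the HOX genes, at a ratio of 4.12 (2.40 to 6.28). NC_059181.1_46485 followed miR-1468 (r = 0.97) at a ratio of 4.41 (2.999 to 6.402), and was called in none of the comparisons.

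NC_059176.1_40495 followed miR-127 (r = 0.95), a miRNA of the imprinted DLK1-DIO3 cluster, at a ratio of 0.78, and NC_059176.1_40497 followed miR-411a (r = 0.92), from the same cluster, at 1.496. NC_059165.1_23375 followed miR-146a (r = 0.96), which is induced in inflammation, at 6.72. NC_059181.1_46472 exceeded miR-221 (r = 0.95) by a ratio of 107, and NC_059180.1_45534 exceeded miR-193b (r = 0.90) by 76.3. NC_059158.1_6074 followed miR-375 (r = 0.98), best known from pancreatic islets, and NC_059174.1_38046 followed miR-328 (r = 0.93). The most abundant locus, NC_059159.1_9569, was most similar to miR-21-5p (r = 0.87), and NC_059157.1_805 to miR-199c (r = 0.86).

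NC_059171.1_34525, NC_059165.1_25336, NC_059165.1_23674 and NC_059157.1_795 had weaker matches, with highest r values of 0.74, 0.56, 0.71 and 0.56, and NC_059159.1_9300 was most similar to miR-423-3p (r = 0.87). How the authors divided reads that fit more than 1 locus is not given in the sources used here, so the levels of loci with near-identical copies are uncertain.

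Pairs within the 82 were also found. NC_059178.1_42973 and NC_059176.1_41254 had r = 0.98 at a ratio of 2.28 (1.63 to 3.21), although their identifiers place them on different reference sequences. NC_059159.1_7095 and NC_059176.1_41091 had r = 0.95 at a ratio of 7.20 (3.50 to 12.1), again on different sequences. NC_059176.1_40495 and NC_059176.1_40497 (r = 0.88) and NC_059169.1_31269 and NC_059169.1_31275 (r = 0.85) were close by number on the same sequence.

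**Figure D5:**
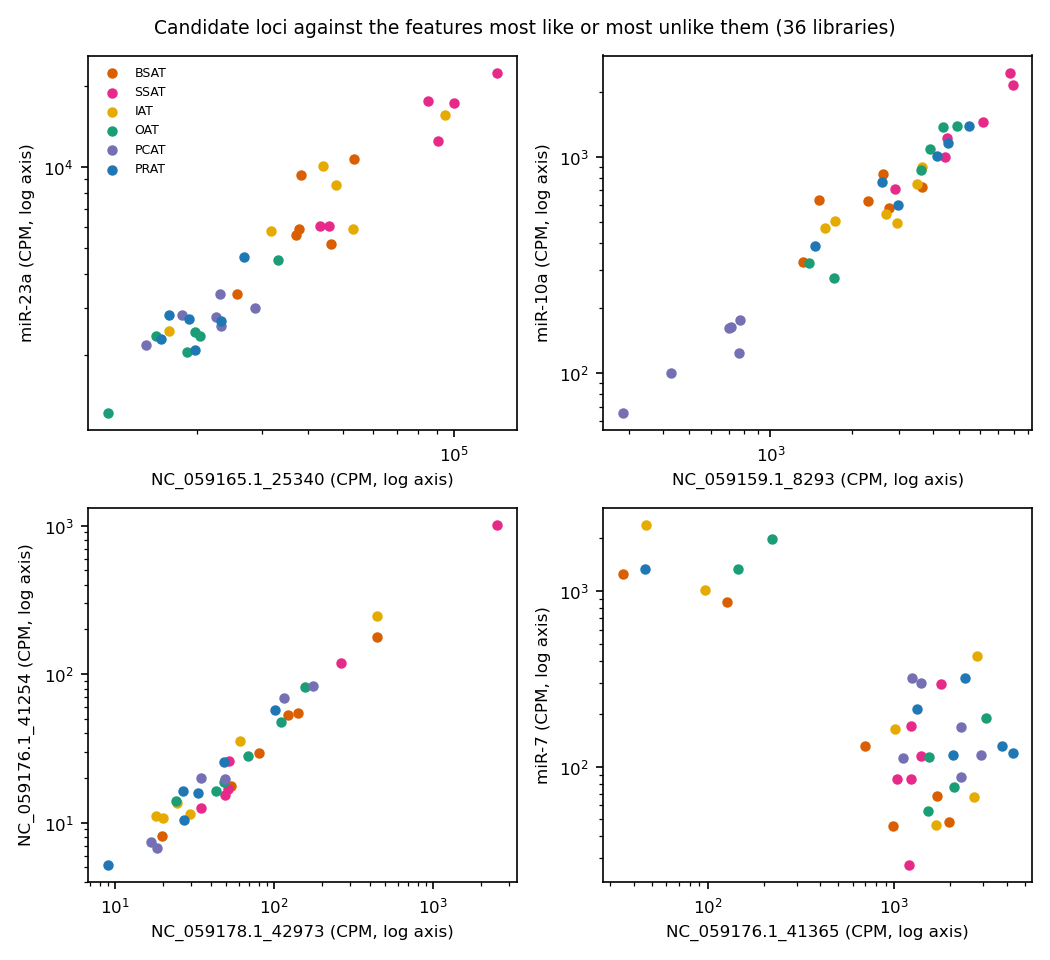
Levels over the 36 libraries (CPM, log axes, colours are depots) of 3 loci against the feature most like each and of NC_059176.1_41365 against miR-7, the feature most unlike it. Points of the first 3 panels lie along a line (r = 0.96, 0.97 and 0.98), and in the last panel 7 libraries with NC_059176.1_41365 at or below 222 CPM have the high miR-7 levels (r = −0.76).

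Closeness by number went with a shared pattern in some pairs and not in others. Over the 12 pairs whose running numbers differ by at most 20 on the same sequence, the median r was 0.19, against 6.26e-04 over all 3321 pairs of the 82 loci. The pairs NC_059176.1_40495 with NC_059176.1_40497, NC_059169.1_31269 with NC_059169.1_31275 and NC_059178.1_42973 with NC_059178.1_42985 had r = 0.88, 0.85 and 0.83. NC_059165.1_25336 and NC_059165.1_25340 had r = 0.49, NC_059181.1_46472 and NC_059181.1_46474 had 0.25, and NC_059159.1_10587 and NC_059159.1_10588 had −0.25. Of the 82 loci, 44 were called in none of the 11 comparisons, 29 were called in a comparison of depots or classes, and 9 only over animals. The 11 comparisons share libraries, and the same count was not made over all features, so it has no background share.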

How the data were processed

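The values read were raw counts, which the authors deposited as whole numbers for each feature in each library, and RPM, reads scaled to the library total. The deposited RPM equalled count over library total within 4.79e-06. Not given in the sources used here: the aligner, the caller, the genome build and the handling of reads that fit several loci. The submitters' processing notes list DESeq2 1.24.0 with no role. The labels name an RNeasy kit for lipid tissue and a TruSeq RNA LT kit. A blank line with 0 counts was left out. Groups are the labelled depots. The depth per library lay between 9484589 and 13920998 counts, and no 2 libraries agreed within sampling noise.

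Tests of the 82 loci come from fits to all features: edgeR 4.0.16 in R 4.3.3 (estimateDisp, robust glmQLFit, glmQLFTest, two-sided), TMM factors 0.745 to 1.26, filterByExpr with minimum count 10, 1 coefficient per depot, 30 residual degrees of freedom, Benjamini-Hochberg adjustment. The F test over animals added the animal to this design. The SE is the log2 difference divided by the square root of F. Log2 CPM used a prior count of 2. Directions per animal compare its mean log2 CPM in both classes. The labels give the 6 animals as separate buffaloes. Each was sampled at all depots, which pairs the libraries: deviations from depot means correlated by 0.198 within and −0.0392 between animals.

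The loci named were the 10 most abundant; those called by class with at least 5 of 6 animals in 1 direction, up to 10 each way; called loci beyond the other 5 depots, 3 up and 2 down per depot; the 5 with the smallest p over animals; the 5 widest ranges; the 10 most similar pairs; and 3 on each side of the threshold. Others were named after their values were seen. Other settings tried were library totals alone, RLE factors, no filter, at least 10 CPM, DESeq2 1.42.0, limma 3.58.1 on log2(RPM + 1), the letter as covariate, letter B alone, each animal or library left out, the animal block, and sums per animal and class. Leaving out the pericardial, perirenal or sternal depot, or PRAT3 and PRAT6, or SSAT1 for the remaining sternal calls, was chosen after seeing the data. The members and lists were chosen with earlier results of these data known. The fits were also run on simulated counts drawn independently for each library. The class and depot runs held no animal effect, so they cannot show what the pairing does to the p values. The marker lists (red blood cells, muscle, epithelium, leukocytes, liver, endothelium, adipose) were used only for values beside a result.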

Additional observations from a re-analysis of the deposited data

Results flagged for a closer look

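Each of 44 named loci was examined in each depot for a library far from the other 5. Of these 264 groups of 6 libraries 12 (4.55%) held one, and chance gives about 1 in 20 groups. In 6 the library was the highest. NC_059159.1_9569 had 84251 CPM in IAT6, against 30986 to 44978 CPM in the other 5 inguinal libraries. NC_059157.1_805 had 46295 CPM in PCAT2, NC_059178.1_42985 had 78.6 CPM in IAT1 (others 12.2 to 20.4 CPM), and NC_059176.1_40497 had 1993 CPM in BSAT2. NC_059181.1_47475 had 1013 CPM in PRAT2 (others 213 to 377 CPM), and NC_059178.1_43407 had 21.9 CPM in SSAT2.

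In the other 6 the library was the lowest. NC_059176.1_40495 had 18327 CPM in PCAT2 (others 27011 to 32169 CPM). NC_059174.1_38046 had 11.5 CPM in BSAT1 (others 74.97 to 104 CPM) and NC_059159.1_10649 had 1.04 CPM in BSAT1. NC_059158.1_6074 had 3.49 CPM in IAT1 (others 217 to 2267 CPM). NC_059175.1_39359 had 4.06 CPM in BSAT3 (others 148 to 327 CPM) and 11.5 CPM in IAT2 (others 121 to 337 CPM).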

How the results depend on the processing

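Of 20 named class calls 4 kept their call in every setting listed in the methods other than those chosen after seeing the data, and of 15 named depot calls 2 did. Numbers in brackets are the calls over all features in the same setting. The class count of 22 (110) was 12 without the filter (120) and 13 with the letter as covariate (71). It was 10 in letter B libraries alone (39). In sums over each animal's depots of a class, fitted with the replicate block, it was 7 (44). Without the pericardial, perirenal or sternal depot it was 14 (58), 13 (94) and 6 (30). With the replicate block alone it was 18 (109). The F test over depots called 15 (93), and 9 without the filter (94), 25 with DESeq2 (164) and 7 in letter B libraries (43). Within subcutaneous depots it called 0 (4). There it gave 2 with library totals (10), 2 at 10 CPM or more (15), 5 with DESeq2 (27), 1 with limma (7) and 1 with the animal block (7). Within visceral depots it called 2 (13), and 1 with library totals (10), 1 without the filter (7) and 4 with the block (26). Over animals it called 11 (78), and 17 with RLE (94) and 28 with DESeq2 (196).

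For single depots, BSAT (1) gave 3 with DESeq2 and 0 with limma and with letter B. SSAT (13) gave 6 without the filter and 4 with letter B. OAT (1) gave 3 with library totals, 4 without the filter, 3 at 10 CPM or more, 2 with DESeq2 and 0 with the block. PCAT (8) gave 5 without the filter and 4 with letter B. PRAT (4) gave 2 with limma, with letter B, with the block and without PRAT3 and PRAT6. Some of these settings hold fewer libraries or other features, and the cause of the changed counts was not tested.

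With each animal or library left out in turn, the class count ran from 9 to 26, over depots from 4 to 20, over animals from 4 to 15, within subcutaneous depots from 0 to 2, within visceral depots from 1 to 3, BSAT from 0 to 1, SSAT from 4 to 14, IAT stayed at 0, OAT ran from 0 to 5, PCAT from 3 to 8 and PRAT from 2 to 5. The class count was 13 without OAT6. PCAT gave 5 without PCAT2 or PCAT5, 4 without PCAT3 or PCAT4 and 3 without PCAT6, and PRAT gave 2 without PRAT2 or PRAT3. The counts over all features are not set beside these ranges, so they have no background share.

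The class difference of NC_059159.1_9569 (−0.01) was 0.014 with RLE and with DESeq2, 0.012 without the filter, 0.0089 at 10 CPM or more, 0.013 with the block and 0.14 in sums, and from −0.24 to 0.20 with an animal or library left out. NC_059159.1_9300 (0.08) had −0.12 with library totals and −0.12 with limma, −0.055 without PCAT and from −0.052 to 0.22 with an animal left out. NC_059157.1_795 (0.90) had −0.065 with limma, NC_059159.1_8293 (0.77) had −0.11 without PCAT, and without PRAT3 and PRAT6 the perirenal differences were −1.15 for NC_059176.1_41091 and −0.77 for NC_059159.1_7095. Loci near 10 RPM rest on fewer counts than the abundant ones, and their differences carry more counting error. The lowest library had 15 counts for NC_059170.1_32627, 44 for NC_059168.1_30046 and 51 for NC_059178.1_43407. The part of counting error in the values above was not tested.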

Other observations

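NC_059176.1_41365 separated the libraries into 2 ranges that follow neither depot nor animal. It had at most 222 CPM in BSAT2, BSAT4, IAT3, IAT5, OAT4, OAT6 and PRAT1 and at least 699 CPM in the other 29 libraries, and 4 of the 7 low libraries carry the letter A. Its level ran against that of miR-7 (r = −0.76 of log2 CPM over 36 libraries). The SD of log2 CPM was 1.88 for the locus, 1.68 for miR-7 and 0.59 for their sum. A second pair of this kind was NC_059181.1_46472 and NC_059181.1_46485 (r = −0.83), with SDs of 1.49 and 0.89 and 0.63 for the sum. These pairs were chosen after seeing the data, and no test was made. A gap of more than 1 on the log2 scale between neighbouring libraries was found for 4 of the 82 loci (4.88%) and for 32 of all 667 features tested (4.80%).

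The depot with the highest mean log2 CPM was PCAT for 22 of the 82 loci, SSAT for 19, PRAT for 13, OAT for 12, BSAT for 11 and IAT for 5. The lowest was SSAT and PRAT for 20 each, PCAT for 16, BSAT for 14 and IAT and OAT for 6 each. The inguinal depot was at an end of the order for 11 of the 82 loci, and it was the depot with no called locus. Over all 667 features it also had the fewest calls of the 6 depots, 2 (0.3%). The order of depots was not counted over all features.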
